A study of Mus musculus with 6 samples.

Results

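The chemokine ligands made by CD4 cells that are described here are 9 genes, *Ccl1*, *Ccl3*, *Ccl4*, *Ccl5*, *Ccl20*, *Ccl22*, *Cxcl3*, *Cxcl10* and *Xcl1*. They were picked by name from the chemokine family, with earlier results of these data known. All 9 were found among the 56748 genes of the deposited table. Naïve CD4 cells of wild-type C57BL/6J mice, aged 6 to 10 weeks, were activated through CD3 and CD28 for 3 days in a Treg polarizing mixture of IL-2, TGF-β and antibodies that block IFNγ and IL-4. From the start the cultures also held antisense oligonucleotides (ASOs), synthetic strands that pair with a matching RNA, at 10 μM, scrambled in 3 libraries and directed at *Pgam* in the other 3. RNA was taken from unsorted cells, so each library is a mixture of whatever cells the culture held. The libraries held between 15860476 and 18032805 estimated counts each.

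Chemokines are small secreted proteins that bind G protein-coupled receptors and draw in the cells that carry them. Activated T cells release several, and the receptor decides who responds: CCR4 and CCR8 are carried by Tregs and Th2 cells, CXCR3 by Th1 and CD8 cells, CCR6 by Th17 cells, CXCR2 by neutrophils, and XCR1 by dendritic cells that cross-present antigen. Tregs are themselves recruited by some of these ligands and release others.

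The targeted genes and the cell type label were examined first. *Pgam1* was at 598, 477 and 706 CPM (counts per megacount of a library, with library totals scaled by TMM) in replicates 1, 2 and 3 labelled scrambled ASO and at 657, 660 and 706 CPM under the *Pgam* ASO label, with overlap between the groups. *Pgam2* was at 5.22, 6.74 and 2.85 CPM against 2.98, 2.69 and 2.60 CPM, and again the groups overlapped. Their log2 fold changes, *Pgam* ASO over scrambled ASO, were 0.18 (adjusted p = 0.331, by the quasi-likelihood test of edgeR and the Benjamini-Hochberg method) and -0.84 (adjusted p = 0.0854, same test). The groups are therefore named by their labels. By flow cytometry the study reported less PGAM1 protein with the *Pgam* ASOs, which these RNA values do not measure. All 12 markers of CD4 T cells passed the filter on low counts in these libraries, with *Thy1*, a surface protein of T cells, the most abundant at 881 to 1056 CPM with scrambled ASO and 1113 to 1140 CPM with *Pgam* ASO. Its groups did not overlap, at a log2 fold change of 0.21 (adjusted p = 0.112, edgeR). Most of the list went the other way: at an unadjusted p under 0.05, 9 were lower and 1, *Thy1*, was higher (edgeR). At an adjusted p under 0.05, 3 were lower and 0 higher.

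Among the ligands, *Ccl4*, *Ccl22* and *Ccl3* made up most of the transcripts in every library. Levels of different genes were set beside each other per length, as CPM per kilobase of the mean annotated transcript. In the scrambled ASO libraries the level was 55.6 ± 20.8 CPM per kilobase (SD, n = 3) for *Ccl4*, 51.5 ± 21.4 for *Ccl22*, 35.5 ± 13.5 for *Ccl3* and 14.0 ± 5.52 for *Xcl1*. Replicates of neighbours in this order overlapped, down to the highest *Xcl1* value of 20.3 against the lowest *Ccl3* value of 19.98 CPM per kilobase. Below a gap came *Ccl5* at 7.58 ± 0.716 (SD, n = 3) and *Ccl20* at 6.19 ± 1.03 CPM per kilobase, which overlapped each other, and then *Ccl1* at 4.56 ± 0.378 CPM per kilobase, which overlapped neither. *Cxcl10* and *Cxcl3* were last, at 0.154 ± 0.134 and 0.0643 ± 0.0727 CPM per kilobase (SD, n = 3), and could not be ordered.

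In the *Pgam* ASO libraries the first 3 places were the same, with levels of 78.9 ± 28.4 for *Ccl4*, 74.0 ± 25.3 for *Ccl22* and 64.2 ± 26.7 CPM per kilobase (SD, n = 3) for *Ccl3*. The places below them were not: *Ccl1* came next at 9.35 ± 3.85 CPM per kilobase, ahead of *Ccl20* at 4.35 ± 2.01, *Xcl1* at 3.40 ± 2.46 and *Ccl5* at 3.40 ± 0.205. Replicates of *Ccl1* overlapped those of *Ccl20*, and *Xcl1* overlapped both *Ccl20* and *Ccl5*, so only the gap between *Ccl3* and *Ccl1*, and that between *Ccl5* and the last pair, exceeded the spread. *Cxcl3*, at 0.479 ± 0.145 CPM per kilobase, and *Cxcl10*, at 0.267 ± 0.183, overlapped. The order leans on the length used: with the longest transcript *Ccl3* stood above *Ccl22* in both groups, and with the mean of protein-coding transcripts, a choice made after the data were seen, *Ccl1* in the scrambled ASO libraries was at 8.79 CPM per kilobase and overlapped *Ccl5* at 8.54. With the same coding lengths *Ccl1* was at 18.01 CPM per kilobase in the *Pgam* ASO libraries and no longer overlapped *Ccl20*, and *Cxcl3*, at 1.06, no longer overlapped *Cxcl10*, at 0.274.

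**Figure D1:**
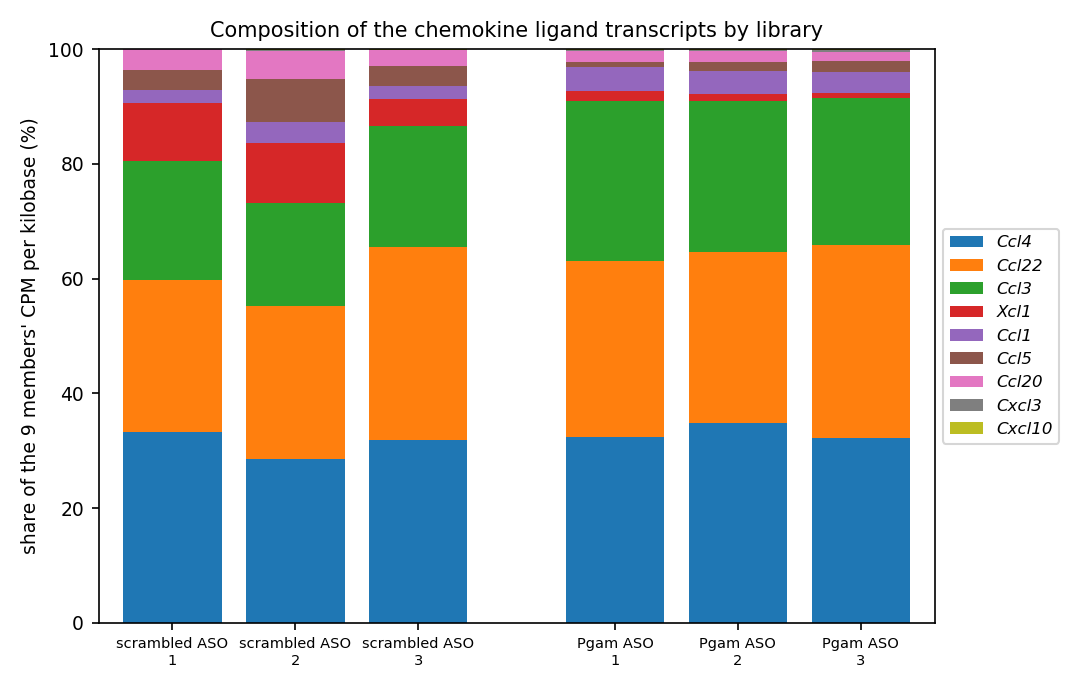
Each bar is a library and each colour the share of 1 ligand in the summed CPM per kilobase of the 9 members; *Cxcl3* and *Cxcl10* are too low to be seen well. The *Xcl1* band takes 10.1%, 10.3% and 4.75% in the scrambled ASO libraries and 1.85%, 1.15% and 0.926% in the *Pgam* ASO libraries.

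The plot of composition by library shows how the mixture of ligand transcripts differed while its 3 main components stayed. *Ccl3* held 20.7%, 18.1% and 21.0% of the members' CPM per kilobase in replicates 1, 2 and 3 with scrambled ASO and 27.9%, 26.4% and 25.6% with *Pgam* ASO. *Ccl4* held between 28.6% and 33.3%, against 32.2% to 34.8%, and *Ccl22* between 26.5% and 33.7%, against 29.8% to 33.6%. The *Ccl3* shares were higher in every *Pgam* ASO library and the *Xcl1* shares lower, while those of *Ccl4* and *Ccl22* overlapped. The 9 members made up 84.8% to 91.8% of the CPM per kilobase of all 40 chemokine ligands in the table with scrambled ASO, and 88.5% to 93.2% with *Pgam* ASO. Their sum was 201, 111 and 214 CPM per kilobase in the scrambled ASO replicates and 333, 223 and 159 in the *Pgam* ASO replicates, so the groups overlapped, and scrambled ASO replicate 2 was the lowest.

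Promoter windows of 300 bases, from 250 before to 50 after the annotated start, were matched by symbol for 7 of the 9 members in a RefSeq table of the GRCm38.p6 build, and not for *Ccl4* and *Ccl5*. They were searched on both strands for the letters GGNNNTTCC, bound by NF-kappaB in many genes, and for GGAAA, the core that NFAT binds, and these can overlap each other. The search also took in the AP-1 letters TGANTCA, the letters GAAANNGAA of the ISRE (interferon-stimulated response element), and the TATA box as TATAAA. The windows shown, 5′ to 3′ with every match to GGNNNTTCC or GGAAA in capitals, are those of *Ccl1*, *Cxcl3* and *Xcl1*, which differed between the groups, and that of *Ccl20*, a member that holds the first motif and did not pass.
*Ccl1* (chr11:82179763-82180062, minus strand): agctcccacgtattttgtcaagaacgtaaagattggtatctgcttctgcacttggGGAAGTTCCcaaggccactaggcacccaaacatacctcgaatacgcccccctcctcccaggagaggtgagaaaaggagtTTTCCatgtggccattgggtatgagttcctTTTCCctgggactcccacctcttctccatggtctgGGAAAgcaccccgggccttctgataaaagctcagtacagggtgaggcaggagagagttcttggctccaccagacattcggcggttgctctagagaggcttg
*Cxcl3* (chr5:90785851-90786150, plus strand): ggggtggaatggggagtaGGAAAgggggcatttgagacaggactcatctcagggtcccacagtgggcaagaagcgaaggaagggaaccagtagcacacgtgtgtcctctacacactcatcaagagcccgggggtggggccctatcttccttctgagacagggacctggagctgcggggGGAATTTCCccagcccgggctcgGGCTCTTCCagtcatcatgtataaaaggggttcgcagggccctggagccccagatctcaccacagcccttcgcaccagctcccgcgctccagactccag
*Xcl1* (chr1:164935473-164935772, minus strand): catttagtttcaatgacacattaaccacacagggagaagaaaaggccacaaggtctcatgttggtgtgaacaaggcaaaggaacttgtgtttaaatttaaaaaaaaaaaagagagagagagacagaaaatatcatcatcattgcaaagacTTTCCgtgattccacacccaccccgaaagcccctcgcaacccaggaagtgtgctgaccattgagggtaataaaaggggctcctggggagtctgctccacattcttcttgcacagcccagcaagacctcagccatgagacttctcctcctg
*Ccl20* (chr1:83116516-83116815, plus strand): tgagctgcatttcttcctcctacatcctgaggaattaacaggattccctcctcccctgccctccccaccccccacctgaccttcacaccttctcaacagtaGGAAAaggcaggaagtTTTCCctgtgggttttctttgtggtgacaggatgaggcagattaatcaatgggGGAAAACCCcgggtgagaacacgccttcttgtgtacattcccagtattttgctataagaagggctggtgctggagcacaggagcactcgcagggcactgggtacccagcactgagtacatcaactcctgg
The NF-kappaB letters were in 4 of the 7 member windows, *Ccl1*, *Ccl20*, *Cxcl3* and *Cxcl10*, and in 18.5% of all 32851 windows in the table. In *Cxcl3* they occurred at 72 and again at 49 bases before the start, in *Ccl20* at 80 and in *Ccl1* at 195. The NFAT letters were in 6 of 7, the exception being *Ccl22*, against 61.3% of all windows, and *Xcl1* held them 1 time, at 100 bases before the start. The ISRE letters were in *Ccl1*, *Ccl3* and *Cxcl10* (8.56% of all windows), the AP-1 letters in *Cxcl10* (7.81%) and the TATA letters in *Cxcl3* (13.6%). A match describes the letters and is not evidence that a factor binds there, and a window without one says only that the letters are not in it.

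Between the groups, 8 of the 9 members could be tested, and 4 of them passed an adjusted p of 0.05: *Cxcl3* and *Ccl1* were higher in the *Pgam* ASO libraries, and *Ccl5* and *Xcl1* were lower. Of all 14936 tested genes 17.2% passed, 8.03% higher and 9.15% lower. The members and the lists of ligands and receptors were chosen with earlier results of these data known, which may favour a larger share. Groups did not overlap for the same 4 members, a property shared by 39.5% of all tested genes. The median log2 fold change was 0.51 over the 8 tested members and -0.0061 over all tested genes, with 5 members above 0 and 3 below. *Cxcl3* passed the filter on low counts through the *Pgam* ASO libraries, where it was high, and *Cxcl10* did not pass it. The test was edgeR's quasi-likelihood test, two-sided, adjusted over all tested genes by the Benjamini-Hochberg method. The replicates were described as biological, without a statement that they came from separate animals, so its p-values measure the spread between these cultures. In bulk RNA, fewer cells that express a gene and less of its RNA per cell cannot be told apart.

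**Figure D2:**
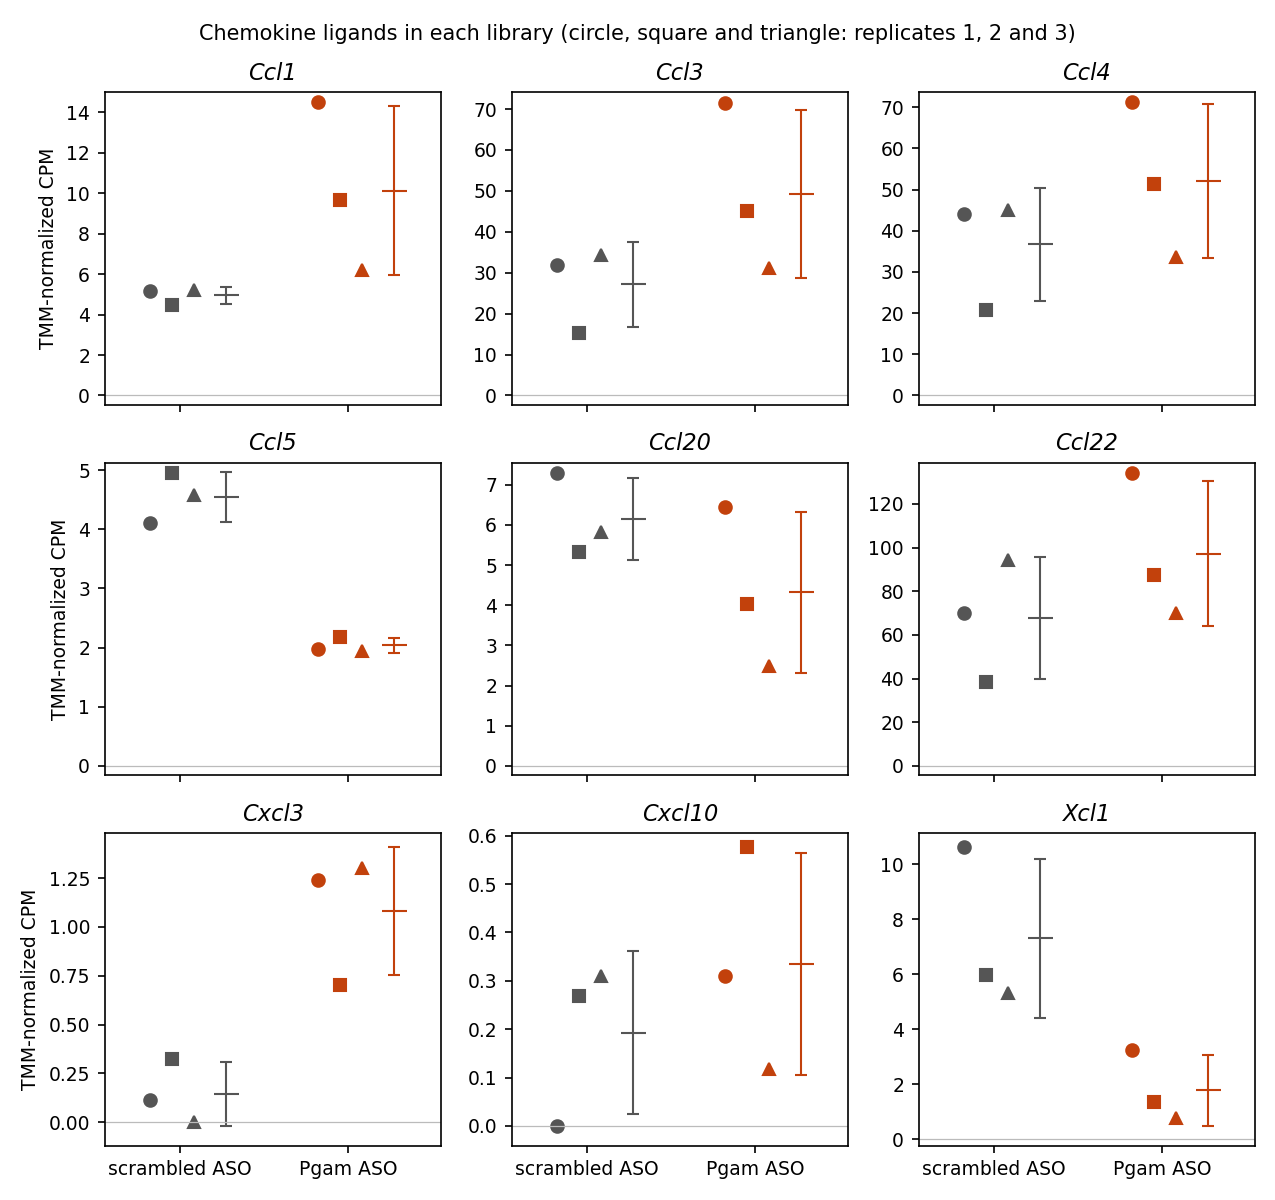
Points are the TMM-normalized CPM of each member in each library, with the mean and SD (n = 3) drawn beside each group and a separate scale for each gene. *Ccl1* and *Cxcl3* are higher in all 3 *Pgam* ASO libraries than in any scrambled ASO library, *Ccl5* and *Xcl1* are lower, and the other 5 members overlap.

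*Ccl1* and *Ccl22* encode ligands of receptors carried by Tregs and Th2 cells, CCR8 for the first and CCR4 for the second. *Ccl1* (ENSMUSG00000020702, chromosome 11, minus strand, 82176657 to 82305690 in GENCODE M21 on GRCm38, a span widened by a long transcript) had 92, 83 and 84 counts in replicates 1, 2 and 3 with scrambled ASO, and 234, 151 and 105 with *Pgam* ASO. In CPM this was 5.17, 4.47 and 5.20 against 14.5, 9.67 and 6.202. The scrambled ASO libraries lay close together, while the *Pgam* ASO libraries spread out above them, and replicate 3 came nearest to the scrambled ASO range. The log2 fold change was 1.03 (95% interval 0.41 to 1.66, adjusted p = 0.0346, edgeR), a 2.05-fold difference, in the same direction in all 3 libraries. The call was lost with limma-voom (adjusted p = 0.0583), with a replicate block (0.0598, edgeR) and when scrambled ASO replicate 1 (adjusted p = 0.0976, edgeR), scrambled ASO replicate 2 (0.0955), *Pgam* ASO replicate 1 (0.122) or *Pgam* ASO replicate 2 (0.115) was left out. Over its 13 alternatives the adjusted p of *Ccl1* ran from 4.84e-05, in edgeR with no filter on low counts, to 0.122. The next lowest was 0.00451, with DESeq2. The log2 fold change ran from 0.68, without *Pgam* ASO replicate 1, to 1.30.

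*Ccl22* (ENSMUSG00000031779, chromosome 8, plus strand, 94745590 to 94751699), the ligand with the highest CPM of the group, had 1244, 716 and 1528 counts with scrambled ASO and 2163, 1362 and 1184 with *Pgam* ASO. The CPM values were 69.9, 38.6 and 94.5 against 134, 87.3 and 69.9. Replicate 2 with scrambled ASO was the lowest and replicate 1 with *Pgam* ASO the highest, and the other 4 libraries were intermingled. Its log2 fold change was 0.52 (95% interval -0.43 to 1.48, adjusted p = 0.392, edgeR), an interval that holds both a small decrease and a more than 2-fold increase.

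*Ccl17*, which encodes the other ligand of CCR4, and *Cx3cl1*, which encodes the membrane-bound ligand of CX3CR1, lie next to *Ccl22* on chromosome 8, with starts 64.9 kb and 26.4 kb away from its start. *Ccl17* had 11, 9 and 10 counts with scrambled ASO and 53, 24 and 21 with *Pgam* ASO, and *Cx3cl1* had 7, 8 and 9 against 27, 19 and 21. Neither gene overlapped between the groups, unlike *Ccl22*, and both were far less abundant, with 79.6 to 153 counts of *Ccl22* for each count of *Ccl17* in the scrambled ASO libraries and 40.8 to 56.8 in the *Pgam* ASO libraries. Both passed the filter on low counts through the *Pgam* ASO libraries only, where they were high, so a difference was favoured by the filter. The log2 fold change was 1.81 for *Ccl17* (95% interval 0.79 to 2.82, adjusted p = 0.0272, edgeR) and 1.57 for *Cx3cl1* (0.69 to 2.45, adjusted p = 0.0268, edgeR). Both calls were lost with the replicate number as a block (adjusted p = 0.0511 for *Ccl17* and 0.0687 for *Cx3cl1*, edgeR). They were also lost without scrambled ASO replicate 1 or 2 and without *Pgam* ASO replicate 1 or 2, at adjusted p-values of 0.0846, 0.0703, 0.118 and 0.0805 for *Ccl17* and 0.0995, 0.0758, 0.108 and 0.0921 for *Cx3cl1* (edgeR). Over their 12 alternatives the adjusted p ran from 0.00114 to 0.118 for *Ccl17* and from 0.0203 to 0.108 for *Cx3cl1*. Whether these fold changes differ from that of *Ccl22* was not tested.

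*Ccl3*, *Ccl4* and *Ccl5* encode inflammatory chemokines, and all 3 genes lie in a cluster on chromosome 11. *Ccl5* (ENSMUSG00000035042, minus strand, 83525778 to 83530518) had 73, 92 and 74 counts in the scrambled ASO replicates and 32, 34 and 33 in the *Pgam* ASO replicates. This corresponded to 4.10, 4.96 and 4.58 CPM against 1.98, 2.18 and 1.95 CPM. The values were tight in both groups and well apart. The log2 fold change of *Ccl5* was -1.16 (95% interval -1.68 to -0.64, adjusted p = 0.0132, edgeR), a 2.23-fold lower level, lower in all 3 libraries. Of the 6 libraries, only *Pgam* ASO replicate 2 ended the call at the 0.05 threshold when left out (adjusted p = 0.0632, edgeR), and the fold change stayed between -1.23 and -1.09 over its 13 alternatives, whose adjusted p ran from 0.0017 to 0.0632.

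*Ccl3* (ENSMUSG00000000982, minus strand, 83647844 to 83649355) had 568, 284 and 556 counts with scrambled ASO and 1151, 705 and 526 with *Pgam* ASO, or 31.9, 15.3 and 34.4 CPM against 71.4, 45.2 and 31.1 CPM. *Ccl4* (ENSMUSG00000018930, plus strand, 83662584 to 83664683), whose start lies 13.2 kb from that of *Ccl3*, had 786, 387 and 729 counts against 1148, 800 and 571, or 44.1, 20.9 and 45.1 CPM against 71.2, 51.2 and 33.7 CPM. Both genes had their lowest value in scrambled ASO replicate 2 and their highest in *Pgam* ASO replicate 1, and in both *Pgam* ASO replicate 3 lay within the scrambled ASO range. The log2 fold changes were 0.86 for *Ccl3* (95% interval -0.15 to 1.86, adjusted p = 0.2, edgeR) and 0.51 for *Ccl4* (-0.42 to 1.43, adjusted p = 0.394, edgeR). The other ligand genes between *Ccl5* and *Ccl3*, *Ccl9* and *Ccl6*, had log2 fold changes of 0.64 (adjusted p = 0.207, edgeR) and 0.45 (adjusted p = 0.506, edgeR), so *Ccl5* was the gene of this cluster whose interval lay below 0.

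**Figure D3:**
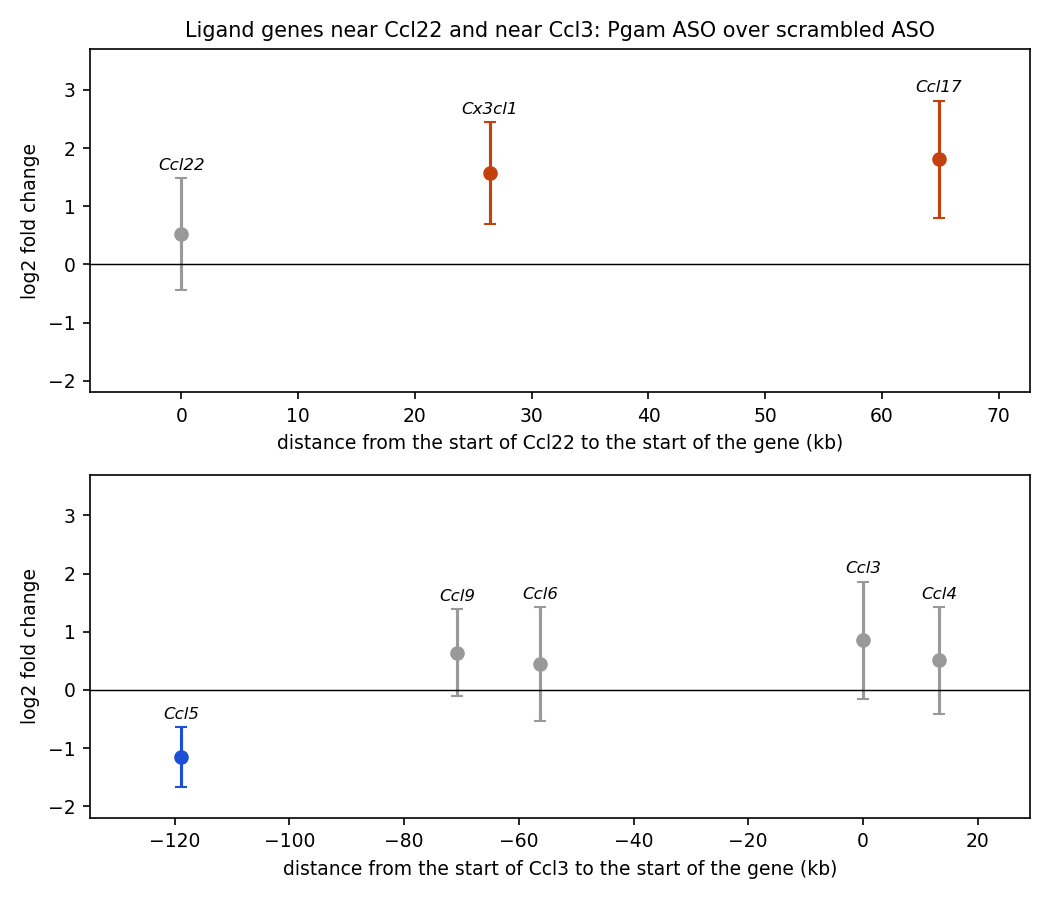
Points are log2 fold changes of *Pgam* ASO over scrambled ASO with 95% intervals, placed by the distance in kb from the start of *Ccl22* (top) or *Ccl3* (bottom) to the start of each neighbouring ligand gene; coloured points passed an adjusted p of 0.05. Near *Ccl22* the fold changes are 0.52, 1.57 and 1.81, and near *Ccl3* the gene 119 kb to the left, *Ccl5*, is at -1.16 while the other 4 are between 0.45 and 0.86.

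*Ccl20* (ENSMUSG00000026166, chromosome 1, plus strand, 83116766 to 83119167) encodes the only known chemokine ligand of CCR6 and is a product of Th17 cells. It had 130, 99 and 94 counts with scrambled ASO and 104, 63 and 42 with *Pgam* ASO, or 7.30, 5.34 and 5.81 CPM against 6.45, 4.04 and 2.48 CPM. *Pgam* ASO replicate 1 lay within the scrambled ASO range and the other 2 below it. The log2 fold change was -0.51 (95% interval -1.21 to 0.19, adjusted p = 0.278, edgeR).

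The CXC chemokines were the members with the fewest counts. *Cxcl3* (ENSMUSG00000029379, chromosome 5, plus strand, 90786103 to 90789600), which encodes a neutrophil attractant that binds CXCR2, had 2, 6 and 0 counts with scrambled ASO and 20, 11 and 22 with *Pgam* ASO. In CPM these were 0.112, 0.323 and 0 against 1.24, 0.705 and 1.30. A floor of 3 counts, about 0.162 to 0.192 CPM at this depth, was taken as the least a library can show, and 2 of the 3 scrambled ASO libraries lay under it while all 3 *Pgam* ASO libraries lay above. The log2 fold change from the fit was 2.79 (95% interval 1.23 to 4.34, adjusted p = 0.0269, edgeR). From the group totals of 8 and 53 counts, scaled for depth, the ratio was 7.15, with an exact binomial 95% interval of 3.38 to 17.4 that covers counting error only. The call was lost without scrambled ASO replicate 1 (adjusted p = 0.1, edgeR), *Pgam* ASO replicate 1 (0.0853) or *Pgam* ASO replicate 2 (0.0827) and with a replicate block (0.0679), and a filter of at least 10 counts in every library removed the gene. Over the 12 alternatives that kept it, the adjusted p of *Cxcl3* ran from 0.000702 to 0.1 and its log2 fold change from 2.27 to 4.04, the last without scrambled ASO replicate 2.

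*Cxcl10* (ENSMUSG00000034855, chromosome 5, minus strand, 92346638 to 92348889), an interferon-induced ligand of CXCR3, had 0, 5 and 5 counts with scrambled ASO and 5, 9 and 2 with *Pgam* ASO. The groups overlapped, and the gene was below the filter for testing. The ratio of the totals, 10 and 16 counts, was 1.73 with an exact binomial 95% interval of 0.737 to 4.26, an interval that covers counting error only and holds both a decrease and a more than 4-fold increase. *Cxcl9* had a count of 0 in every library. *Cxcl11*, named for the remaining CXCR3 ligand, is annotated in GENCODE M21 as a polymorphic pseudogene. It had 1, 1 and 0 counts with scrambled ASO and 0, 0 and 0 with *Pgam* ASO.

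*Xcl1* (ENSMUSG00000026573, chromosome 1, minus strand, 164931644 to 164935527) encodes lymphotactin, the ligand of XCR1. It had 189, 111 and 86 counts in the scrambled ASO replicates and 52, 21 and 13 in the *Pgam* ASO replicates, or 10.6, 5.98 and 5.32 CPM against 3.22, 1.35 and 0.768 CPM. Each group had 1 library above the other 2, replicate 1 in both, and the groups did not overlap. The log2 fold change was -2.04 (95% interval -3.11 to -0.97, adjusted p = 0.0237, edgeR), a 4.11-fold lower level in the *Pgam* ASO libraries and the largest decrease among the members. The call was lost without scrambled ASO replicate 1 (adjusted p = 0.0792, edgeR), scrambled ASO replicate 2 (0.0566) or *Pgam* ASO replicate 2 (0.111), and without *Pgam* ASO replicate 1 the log2 fold change was -2.79. Over the 14 alternatives of *Xcl1* the adjusted p ran from 9.55e-11, in edgeR with no filter on low counts, to 0.111. The next lowest was 9.43e-05, with DESeq2.

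The *Xcl1* value is also the one most exposed to how reads were divided between genes. Its transcript shares 14.2% of its 31-base stretches with *Gm20743*, a non-coding gene that spans *Xcl1* on the opposite strand (164863133 to 164936775), and the sources used here do not say whether strand was kept in counting. *Gm20743* had 68, 245 and 12 counts with scrambled ASO and 2, 1 and 6 with *Pgam* ASO. Both genes were thus lower in all 3 *Pgam* ASO libraries, but their highest scrambled ASO libraries differed, replicate 1 for *Xcl1* and replicate 2 for *Gm20743*. Summed, they gave a log2 fold change of -2.76 (adjusted p = 0.0175, edgeR). *Cxcl10* overlaps *Art3* on the opposite strand, which had 0, 2 and 1 counts with scrambled ASO and 6, 0 and 0 with *Pgam* ASO. *Ccl1*, *Ccl3*, *Ccl4*, *Ccl20* and *Ccl22* share no 31-base stretch with another gene, *Ccl5* shares 0.539%, *Cxcl10* 4.47% and *Cxcl3* 5.46%.

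**Figure D4:**
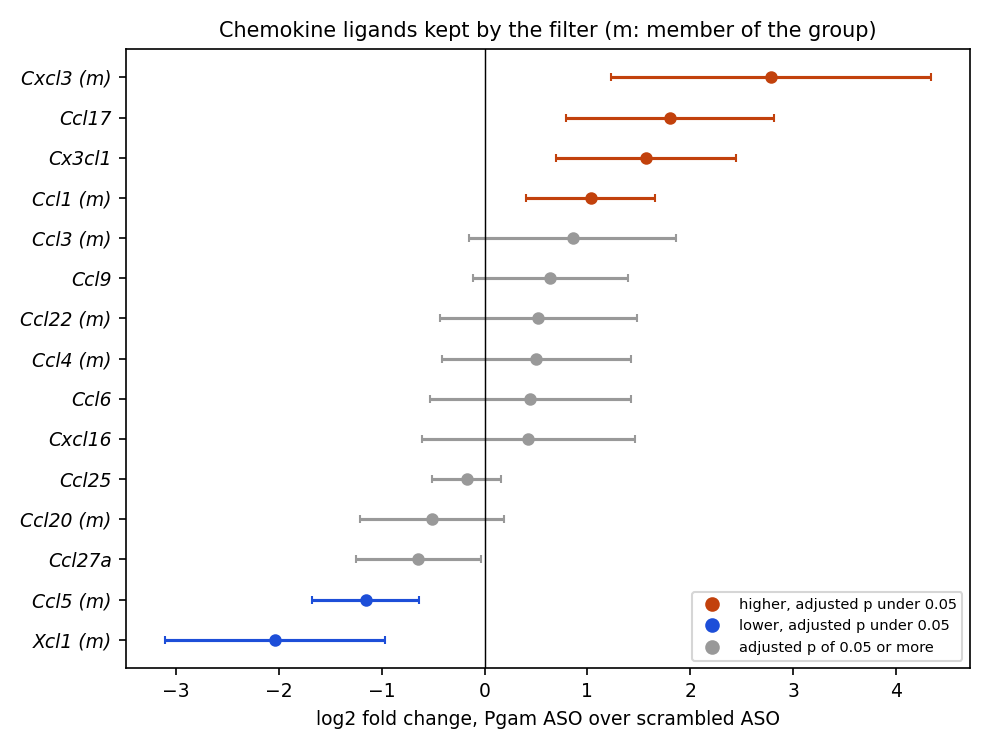
Points are log2 fold changes of *Pgam* ASO over scrambled ASO for the 15 chemokine ligands kept by the filter, with 95% intervals from edgeR's fit, and (m) marks the members. The 4 that passed as higher run from 1.03 to 2.79, and the 2 that passed as lower are at -1.16 and -2.04.

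Set in the whole family, the members held most of the ligand transcripts. Of 42 chemokine ligands listed, 40 were in the table, 12 of these had a count of 0 in every library, and 15 passed the filter. In the plot of ligand fold changes, 6 of the 15 passed the test, 4 higher and 2 lower, beside 17.2% of all tested genes (8.03% higher and 9.15% lower). Of the 4 higher, *Cxcl3*, *Ccl17* and *Cx3cl1* were let through the filter by the *Pgam* ASO libraries alone, which favours a higher call, and with at least 10 counts asked of every library 1 higher and 2 lower were left. Their median log2 fold change was 0.51, beside -0.0061 over all tested genes. Of the 7 tested ligands outside the group of 9, 2 passed, *Ccl17* and *Cx3cl1*, and the median log2 fold change of the 7 was 0.45. The genes beside *Ccl1* on chromosome 11 were silent, with counts of 0 in all libraries for *Ccl2*, *Ccl7*, *Ccl8* and *Ccl11* and a single count in all for *Ccl12*.

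The receptors through which the members act were examined next to them. *Ccr8*, whose ligand is *Ccl1*, was at 84.1, 75.8 and 92.6 CPM with scrambled ASO and 129, 114 and 90.6 CPM with *Pgam* ASO, overlapping at 1 library, with a log2 fold change of 0.40 (adjusted p = 0.0573, edgeR). *Ccr6*, whose ligand is *Ccl20*, was at 41.1, 42.7 and 44.0 CPM against 20.5, 17.3 and 17.8 CPM and fell, with a log2 fold change of -1.20 (adjusted p = 0.000395, edgeR). *Cxcr3*, whose ligands include *Cxcl10*, was at 18.9, 22.4 and 15.8 CPM against 12.9, 11.1 and 11.99 CPM and also fell, with a log2 fold change of -0.67 (adjusted p = 0.0199, edgeR), a call lost without scrambled ASO replicate 1 (0.0736), scrambled ASO replicate 2 (0.0559) or *Pgam* ASO replicate 2 (0.105) in a range of 0.000866 to 0.105 over its 13 alternatives. *Ccr4*, whose ligands include *Ccl22*, had a log2 fold change of -0.09 (adjusted p = 0.602, edgeR), with overlapping groups. Other listed receptors of the members, *Ccr1*, *Ccr3*, *Cxcr2* and *Xcr1*, did not pass the filter, with 25 counts or fewer in either group.

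**Figure D5:**
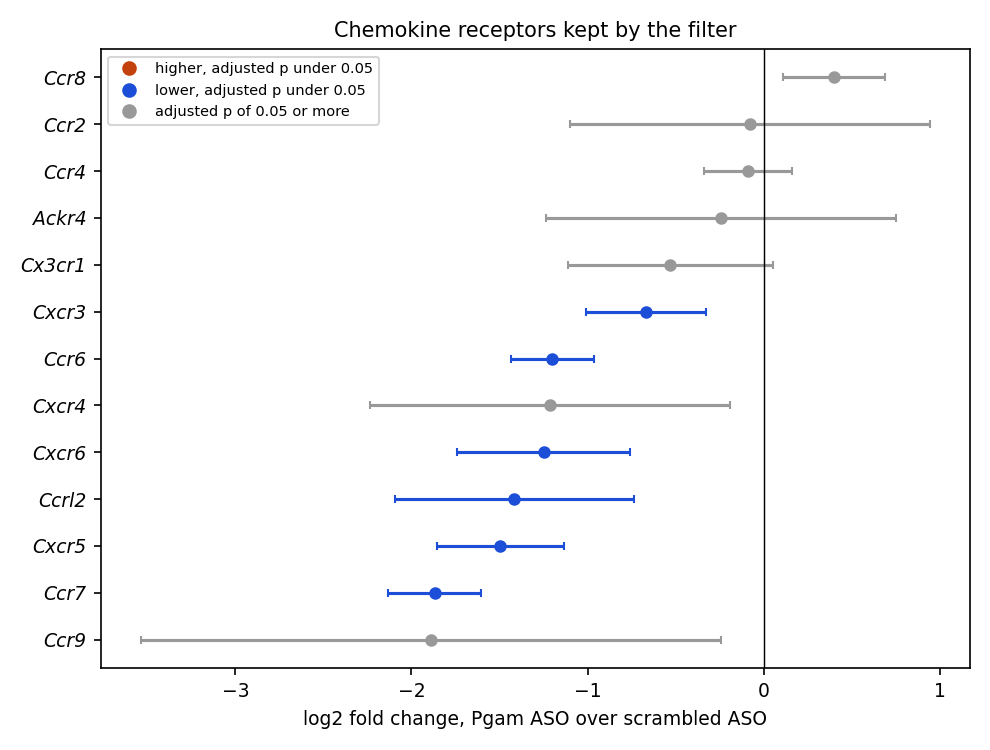
Points are log2 fold changes of *Pgam* ASO over scrambled ASO for the 13 listed chemokine receptors kept by the filter, with 95% intervals from edgeR's fit. The 6 that passed an adjusted p of 0.05 lie between -1.87 and -0.67, and *Ccr8* is the only one above 0.

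Of 23 chemokine receptors listed, 13 passed the filter, 6 of them passed edgeR's test as lower and 0 as higher, and their median log2 fold change was -1.20, beside 0.51 for the tested members. At an unadjusted p under 0.05, 8 receptors were lower and 1, *Ccr8*, was higher, and DESeq2 called *Ccr8* higher as well (adjusted p = 0.0314, in a range of 0.00121 to 0.195 over its 13 alternatives) while limma-voom called 0 higher and 7 lower. *Ccr8* also passed without scrambled ASO replicate 3 (adjusted p = 0.0393, edgeR) and without *Pgam* ASO replicate 3 (0.0123). The other receptors that passed were *Ccr7*, which guides T cells to lymph nodes, at -1.87, *Cxcr5* at -1.50, *Ccrl2* at -1.41 and *Cxcr6* at -1.25. The *Ccrl2* call was lost without scrambled ASO replicate 1 (adjusted p = 0.0639, edgeR) or *Pgam* ASO replicate 2 (0.087), in a range of 7.08e-05 to 0.087 over its alternatives, and the *Cxcr6* call without *Pgam* ASO replicate 2 (0.0575), in a range of 3.31e-05 to 0.0575. Groups did not overlap for 9 of the 13, all lower, and 1 of these, *Ccr9*, passed the filter through the scrambled ASO libraries only. Over all tested genes 17.2% passed, 9.15% as lower, and 39.5% did not overlap.

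For each tested member, the genes with the most similar profile over the 6 libraries were looked up by the root mean square difference of centred log2 CPM. *Ccl4* and *Ccl22*, on different chromosomes, were in each other's nearest 2, at a difference of 0.14 where their own profiles had a size of 0.55. Nearest to *Ccl3* were *Crabp2* (0.11) and *Inhba* (0.12), to *Ccl1* *Klrk1* (0.11) and *Nespas* (0.12), to *Ccl22* *Oaf* (0.12) and to *Ccl4*, after *Ccl22*, *Sdc1* (0.15). *Ccl5* was closest to *2810001G20Rik* (0.085) and *Nebl* (0.093), and *Ccl20*, whose profile had a size of 0.50, to *Tuft1* (0.19) and *Tigit* (0.20). The nearest to *Xcl1*, *Agap1* and *Nav2*, differed by 0.53 and 0.57 from a profile of size 1.24, and those to *Cxcl3*, *Gm12191* and *Rpl30-ps10*, by 0.43 and 0.50 from one of 1.32. These are descriptions of 6 libraries, with no test.

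The cultures were begun from CD4 cells enriched by removal of other cells and were not sorted at the end, so markers of other cell types were counted beside the members that differed. Of 7 markers of NK cells and innate lymphoid cells, cells that can make *Xcl1* and *Ccl5*, only 2 could be tested. These were *Eomes* and *Klrd1*, and both were lower. The list summed to 58.0, 42.4 and 58.3 CPM with scrambled ASO against 29.3, 28.4 and 26.3 CPM with *Pgam* ASO. *Eomes*, a transcription factor that CD8 T cells also use, made up most of this, at 52.4, 32.0 and 54.9 CPM against 28.2, 26.8 and 24.1 CPM, and its log2 fold change was -0.82. *Klrd1*, a receptor subunit of NK cells and some T cells, had 95, 181 and 52 counts against 16, 22 and 32, a log2 fold change of -2.09 (adjusted p = 0.0131, edgeR) beside -2.04 for *Xcl1*. Of the defining markers *Klrb1c*, *Klra8* and *Klra4* were at 0 in every library, while *Ncr1* had 1, 2 and 0 counts against 1, 1 and 0 and *Klre1* had 3, 9 and 2 against 2, 2 and 5. Like *Xcl1* and *Ccl5*, the sum did not overlap between the groups. Of 2 markers of CD8 T cells *Cd8a* was higher, and the sum was 11.2, 13.5 and 10.8 CPM against 14.6, 10.9 and 15.7 CPM, most of it *Cd8b1*. Of 8 markers of mast cells and basophils, cells that can make *Ccl1*, *Ccl3* and *Ccl4*, 1 was higher, *Gata2*, which passed the filter through the *Pgam* ASO libraries only. Of the 8 only 3 could be tested, and 2 were higher at an unadjusted p under 0.05, 2 at an adjusted p under 0.05 with DESeq2 and 1 with limma-voom. *Cpa3*, and below the filter *Mcpt8* and *Fcer1a*, were also higher in all 3 *Pgam* ASO libraries without overlap. The sum was 3.26, 2.91 and 2.91 CPM against 8.495, 7.56 and 5.26 CPM, with no overlap between the groups. The most abundant of these by the mean of all libraries, though not in each of them, was *Cpa3*, at 0.955, 1.51 and 0.742 CPM against 2.54, 2.24 and 2.13 CPM, and *Mcpt4* was at 0. The part of these cells in the differences of the members was not tested.

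Other lists moved as well. Of 10 B cell markers 8 could be tested and 2 were lower, *Ighm* and *Ighd*. The sum was 343, 474 and 235 CPM against 91.7, 125 and 155 CPM, nearly all of it *Ighm* at 319, 446 and 215 CPM against 75.5, 111 and 142 CPM. Of 6 stromal and endothelial markers only 2 could be tested and 1 was lower, *Pecam1*. It was at 88.6, 146 and 63.7 CPM against 29.3, 35.4 and 48.7 CPM, in a sum of 90.1, 148 and 65.6 CPM against 29.8, 36.1 and 50.03 CPM. Of the 12 CD4 T cell markers 3 were lower, *Trac*, *Cd28* and *Cd5* (9 lower and 1 higher at an unadjusted p under 0.05, 5 lower with DESeq2 and 3 with limma-voom), and the sum was 4987, 5256 and 4796 CPM against 4354, 4492 and 4588 CPM. Within each group all 3 sums stood in the reverse of the library order of *Ccl3*, *Ccl4* and *Ccl22*: they were highest in scrambled ASO replicate 2 and lowest in *Pgam* ASO replicate 1, where those members were lowest and highest. Their part in the differences of the members was not tested.

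Markers of cells that make many chemokines were scarce. Of 14 markers of monocytes, macrophages and dendritic cells only 4 could be tested. Of these 0 passed edgeR's test (2 were lower at an unadjusted p under 0.05, and DESeq2 and limma-voom called 0). The sum of the list was 15.0, 15.8 and 16.3 CPM against 12.8, 11.2 and 11.8 CPM. *Zbtb46* was on average the most abundant, at 5.95, 6.31 and 6.99 CPM against 5.77, 4.16 and 3.01 CPM, and *Clec9a*, *Cd209a* and *Siglech* were at 0 in every library. Of 8 neutrophil markers only 3 could be tested, and 0 passed with any of the 3 tools or at an unadjusted p under 0.05. The sum of the list was 3.93, 2.21 and 1.55 CPM against 4.90, 4.10 and 3.07 CPM. *S100a9* led on average with 0.495 to 1.98 CPM, and *Retnlg* was at 0. Of 5 gamma delta T cell markers 2 had an entry in the table, *Trdc* and *Sox13*, and 0 passed with the 3 tools (1 was higher at an unadjusted p under 0.05 in edgeR), with a sum of 4.10, 5.01 and 4.08 CPM against 4.46, 3.97 and 4.13 CPM, led by *Trdc* at 2.78 to 4.26 CPM. Their part in the levels of the members was not tested.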

How the data were processed

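RNA-seq libraries of 6 cultures of murine CD4 cells were used, 3 with scrambled ASO and 3 with *Pgam* ASO. The authors deposited estimated counts per Ensembl gene, which Kallisto had produced; the values are whole and not normalized. The submitters' processing notes name the GRCm38 build. The Kallisto version, the annotation, strand handling and the step from transcripts to genes are not given in the sources used here. Symbols came from a gene name table matched by Ensembl ID, and coordinates and transcript lengths from GENCODE M21. The members and lists were chosen with earlier results of these data known.

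The whole table was fitted in R 4.3.3 with edgeR 4.0.16 (filterByExpr defaults, 14936 genes kept, TMM scaling, robust quasi-likelihood test, two-sided, Benjamini-Hochberg adjustment, threshold 0.05), and the procedure was tested on simulated data, where more of the calls were false than the threshold allows for. CPM uses TMM-scaled totals of all counts. Standard errors follow from the F statistic, and 95% intervals from its degrees of freedom. Log2 CPM profiles used a prior count of 2. Counting intervals were computed in SciPy 1.17.1. Stretches of 31 bases were counted on both strands of GENCODE M21 transcripts.

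Genes were named by this rule: the members, *Pgam1* and *Pgam2*, the listed receptors of the members, every listed ligand or receptor with an adjusted p under 0.05, for each tested member the 2 tested genes of closest profile whose mean log2 CPM reached 1, and the most abundant gene of each cell type list. *Gm20743* and *Art3* were named because they overlap members. Silent ligands, *Ccl6*, *Ccl9*, *Ccr9* and further markers were named after their values were seen. The alternatives were DESeq2 1.42.0, limma-voom (limma 3.58.1), RLE factors, library size alone, no filter, a filter that asks 10 counts of all libraries, a replicate block, leaving out 1 library at a time, a stricter threshold of 0.01, a 2-fold minimum, *Xcl1* summed with *Gm20743*, and other transcript lengths. Flow cytometry and metabolite data of the study were not analysed here.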

Additional observations from a re-analysis of the deposited data

How the results depend on the processing

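The number of members past an adjusted p of 0.05 was 4, and it fell to 2 with a replicate block and to 0 at an adjusted p under 0.01. Leaving out each library in turn gave 0 to 4 members, 0 to 6 of the 15 tested chemokine ligands (6 with all libraries), and 3 to 9 of the 13 tested receptors on the list (6 with all libraries). For the ligands the count was 3 with at least 10 counts in every library, a filter that removes *Cxcl3*, *Ccl17* and *Cx3cl1*, 2 with the replicate block and 0 at an adjusted p under 0.01. Of all genes, 2565 passed, against 1235 with the replicate block, 391 to 3484 with a library left out, and 3193 with DESeq2. The lowest counts came without *Pgam* ASO replicate 2, and fits with 5 libraries have fewer degrees of freedom. Nothing but the number says that equal replicate numbers belong together, and deviations from the group means correlated across genes at 0.053, -0.034 and -0.24 for equal numbers. Under the replicate block *Ccl1* (adjusted p = 0.0598, edgeR) and *Cxcl3* (0.0679) did not pass. Of 232 fold changes of single genes under alternatives, 197 kept their direction and side of the threshold, 30 no longer passed, 4 (all *Ccr8*) passed where the main comparison did not, and 1 turned, *Ccr4* without scrambled ASO replicate 3, at 0.022 in a range of -0.20 to 0.022. The cause of these shifts was not tested. In the ranges of adjusted p given for single genes, the lowest value came from the fit with no filter, except for *Ccl5* (DESeq2). For the order of levels, the group that kept fewer places kept 5 of 9 with the longest transcript (that with *Pgam* ASO) and 4 of 9 with protein-coding transcripts (that with scrambled ASO). *Cxcl3* and *Cxcl10* are limited by depth, with 22 counts or fewer in any library, and 3 libraries a group limit every comparison.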

Other observations

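The ratio of *Ccl3* to *Ccl4*, neighbours that share no 31-base stretch, was examined within each library. Within a library there were 0.723, 0.734 and 0.763 counts of *Ccl3* for each count of *Ccl4* in scrambled ASO replicates 1, 2 and 3, and 1.003, 0.881 and 0.921 in the *Pgam* ASO replicates. The groups did not overlap in this ratio, although they overlapped for each gene alone. The mean log2 ratio was -0.44 ± 0.04 (SD, n = 3) with scrambled ASO and -0.10 ± 0.09 with *Pgam* ASO, a difference of 0.34. The ratio was chosen after the counts of both genes had been seen, so it is a description with no test.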
